A study of Mus musculus with 2 samples.

Results

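CTCF regions around Cd4, Cd8a, Cd8b1, Zbtb7b and Runx3 were examined in CD4+CD8+ (double-positive) thymocytes. CTCF, a DNA-binding protein with many zinc fingers, holds the ends of chromatin loops together with cohesin. A region here is a run of adjoining 25 bp windows that the authors placed in peaks, and it belonged to a locus if its midpoint lay in a fixed window of the mouse genome build mm9. The 4 windows were positions 124750000 to 124950000 of chromosome 6 for Cd4, 71200000 to 71420000 of chromosome 6 for Cd8a and Cd8b1, 89130000 to 89240000 of chromosome 3 for Zbtb7b, and 134550000 to 134800000 of chromosome 4 for Runx3. They held 67 regions (25, 19, 5 and 18 in that order) of the 51660 on the 19 autosomes and the X. The windows select regions by position only and by no other property, but they were chosen with earlier results of these data known.

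The chromatin came from thymocytes of C57BL/6 mice aged 4 to 8 weeks. These animals were Rag1 -/- and carried a TCRbeta transgene, that is, a T cell receptor beta chain gene supplied already rearranged. The series lists 1 anti-CTCF immunoprecipitation and 1 input control from such cells. The input control was not analysed here. With Rag1 absent no receptor alpha chain can be assembled, so such cells are known to reach the double-positive stage and not to be selected further. The single CTCF library has no replicate, so windows are compared with each other and with the rest of that library. The track gives positions without heights, read counts or scores. The depth is therefore unknown, the strength of binding cannot be given, and the labelled cell type could not be checked against marker genes. How many mice were pooled is not given in the sources used here.

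Double-positive thymocytes express both co-receptors and later keep 1 of them. Cd4 encodes the co-receptor for MHC class II, and its silencing outside the helper lineage depends on an intronic silencer bound by Runx factors. Cd8a and Cd8b1 encode the chains of the co-receptor for MHC class I and share a set of enhancers. Zbtb7b encodes ThPOK, the zinc-finger repressor that sets the CD4 helper fate. Runx3 encodes the Runt-domain factor that sets the CD8 cytotoxic fate, and it represses Cd4 and Zbtb7b. Both Zbtb7b and Runx3 are transcribed from more than 1 promoter. In the order of protein-coding genes in RefSeq (GRCm38.p6), Cd4 lies between Gpr162 and Lag3, Cd8b1 lies next to Cd8a between Gm1070 and Rmnd5a, Zbtb7b lies between Dcst2 and Lenep, and Runx3 lies between Syf2 and Clic4. No mm9 annotation was used, so whether a region overlaps an exon, an intron or a promoter is not stated.

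No mm9 sequence was used either, so the letters under the regions cannot be shown. Promoter sequences of GRCm38.p6 were searched for a form of the CTCF core motif, CCANN immediately followed by AGNNGGC, on both strands. RefSeq entries of 300 bases were at hand for 3 of the 5 genes, with 2 starts each for Zbtb7b and Runx3 and 1 for Cd8a, and Cd4 and Cd8b1 were without one. None of the 5 promoters held the motif, which was found in 2.43% of all 32851 promoters of the same length. Its shorter 3′ part AGGGGGC, a search added after the sequences were seen, occurred in 1 of the 5, the downstream start of Zbtb7b, against 10.6% of all promoters. That promoter held it 2 times on the strand opposite to the gene. A match of the longer form with G at both free positions of its second part also holds the shorter one. At a share of 10.6%, 1 promoter with a match among 5 is not unusual, so it sets neither the gene nor the start apart. Both promoters of Zbtb7b are shown as an example of letters with and without the shorter motif. Each is given as the 250 bases before the start on the minus strand of GRCm38, with matches to the shorter motif, read on the other strand, in capitals. They are chr3:89393379-89393628 for the upstream and chr3:89387672-89387921 for the downstream start, and these GRCm38 positions cannot be set against the mm9 positions of the regions.
Zbtb7b upstream start: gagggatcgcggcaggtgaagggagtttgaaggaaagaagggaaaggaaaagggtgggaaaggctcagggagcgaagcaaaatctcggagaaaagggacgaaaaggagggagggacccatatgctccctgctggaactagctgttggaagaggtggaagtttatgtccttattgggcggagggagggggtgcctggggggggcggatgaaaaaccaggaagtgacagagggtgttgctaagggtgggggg
Zbtb7b downstream start: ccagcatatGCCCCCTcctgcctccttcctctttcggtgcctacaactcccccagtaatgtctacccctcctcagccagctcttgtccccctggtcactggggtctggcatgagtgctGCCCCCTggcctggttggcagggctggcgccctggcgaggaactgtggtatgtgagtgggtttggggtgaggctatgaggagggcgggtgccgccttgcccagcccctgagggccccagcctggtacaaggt
A match is a description of these letters and does not show binding. The absence of a match in the other windows of 250 bases before and 50 bases after a start says nothing of CTCF.

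The Cd4 window was the most crowded of the 4. Its 25 regions in 200 kb corresponded to 125 regions per Mb (95% Poisson interval 80.9 to 184.5). The Cd8a/Cd8b1 window held 19 regions in 220 kb, or 86.4 per Mb (52.0 to 134.9). The Runx3 window held 18 in 250 kb, or 72.0 per Mb (42.7 to 113.8). The Zbtb7b window held 5 in 110 kb, or 45.5 per Mb (14.8 to 106.1). All 4 densities were above the 19.6 regions per Mb of the autosomes and X together, by 6.38, 4.41, 3.68 and 2.32 times in the same order. The interval of Zbtb7b included 19.6, and those of Cd4, Cd8a/Cd8b1 and Runx3 lay above it. The intervals cover counting error only and treat regions as independent. Regions were unevenly spread, since stretches of 200 kb of the autosomes and X held a mean of 3.92 regions and 36.6% held none. The intervals are therefore likely too narrow. They overlapped in all 6 pairs of windows, which does not show that the densities were alike. No test between windows was made, since there was 1 library.

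Each window was also set beside all complete tiles of its own length along the autosomes and X, counted from the first base of each chromosome. Of the 13176 tiles of 200 kb, 0.402% held as many regions as the Cd4 window or more. The share was 2.79% of 11975 tiles for the Cd8a/Cd8b1 window and 4.98% of 10538 tiles for the Runx3 window. It was 18.3% of 23960 tiles for the Zbtb7b window, whose 5 regions compare with a median of 1 region per tile and a 95th percentile of 9. The median tile of the other 3 lengths held 2 regions. Between 33.3% and 46.2% of tiles held none. Tiles were not matched on gene content, which was not tested, and these shares describe this library.

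**Figure D1:**
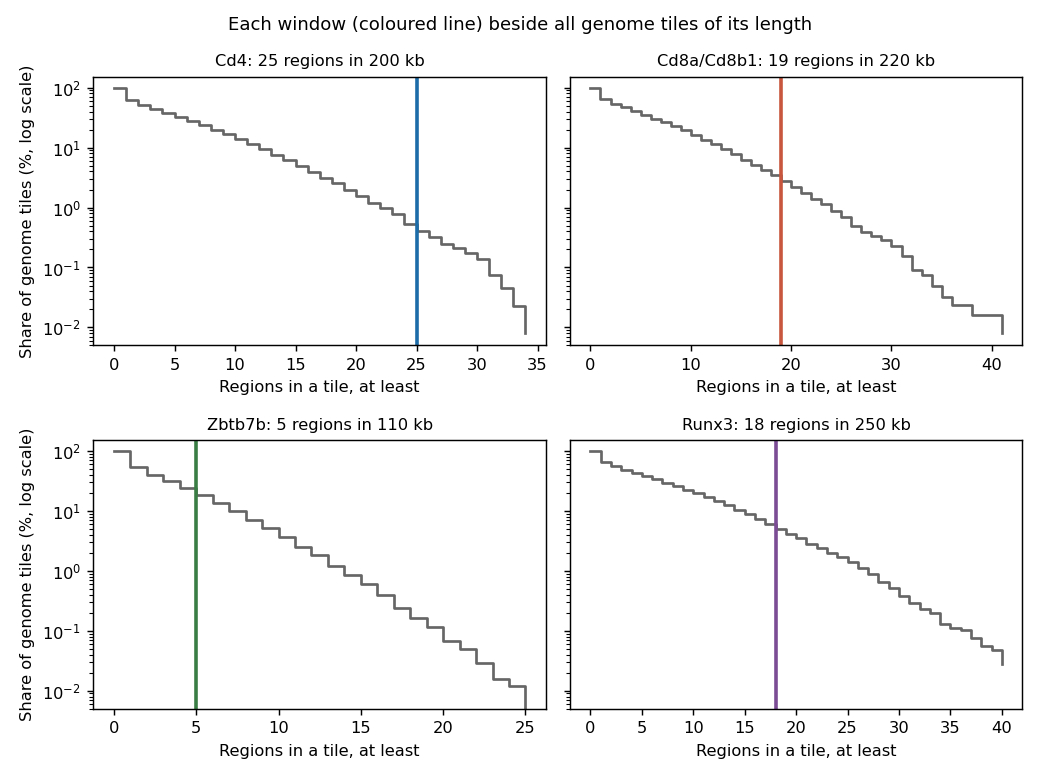
Share of genome tiles (%, log axis) that hold at least the number of CTCF regions on the x axis, for tiles as long as each locus window, with a coloured line at the window's own number. The line of Cd4 at 25 regions meets the curve at 0.402%, that of Zbtb7b at 5 regions at 18.3%.

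Among wider regions the windows were closer to each other. Regions of at least 525 bp, the median width of all 51660, numbered 11 in the Cd4 window, 10 in the Cd8a/Cd8b1 window, 10 in the Runx3 window and 5 in the Zbtb7b window. Per Mb these were 55 for Cd4 (95% Poisson interval 27.5 to 98.4), 45.5 for Cd8a/Cd8b1 (21.8 to 83.6), 40 for Runx3 (19.2 to 73.6) and 45.5 for Zbtb7b (14.8 to 106.1), against 10.2 per Mb for the autosomes and X. Counted this way the 4 windows lay within 3.94 to 5.42 times the genome's density, and Zbtb7b no longer stood lowest. The share of tiles with as many such regions or more was 1.84% for Cd4, 3.74% for Cd8a/Cd8b1, 5.13% for Runx3 and 5.99% for Zbtb7b.

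Region width varied most in the Cd4 window and least in the Zbtb7b window. The median width was 325 bp in the Cd4 window (exact 95% binomial interval of the median 100 to 625 bp), 525 bp in the Cd8a/Cd8b1 window (325 to 625 bp), 537.5 bp in the Runx3 window (325 to 650 bp) and 675 bp in the Zbtb7b window. The median of all regions was 525 bp, with quartiles of 225 and 625 bp. For 5 regions no such interval exists at this level, and the Zbtb7b widths ran from 650 to 750 bp. Mean widths were 397 ± 302 bp for Cd4 (SD across 25 regions), 441 ± 250 bp for Cd8a/Cd8b1 (19 regions), 518 ± 236 bp for Runx3 (18 regions) and 680 ± 41.1 bp for Zbtb7b (5 regions). The intervals of Cd4, Cd8a/Cd8b1 and Runx3 overlapped one another. The low median of Cd4 rested on its narrowest regions and on the settings: it was 575 bp without regions of at most 75 bp, 537.5 bp after joining regions at most 1000 bp apart, 487.5 bp after joining at 100 or 500 bp and 500 bp with the window widened by 50 kb on both sides. Without regions of at most 75 bp it was above the 550 bp of Runx3, and in the widened window above the 475 bp of Cd8a/Cd8b1. The Zbtb7b median lay above the upper bounds of the medians of Cd4, Cd8a/Cd8b1 and Runx3, but has no interval of its own. Single widths were not separate. The widest regions measured 1150 bp for Cd4, 875 bp for Cd8a/Cd8b1 and 1050 bp for Runx3, against 750 bp for Zbtb7b.

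**Figure D2:**
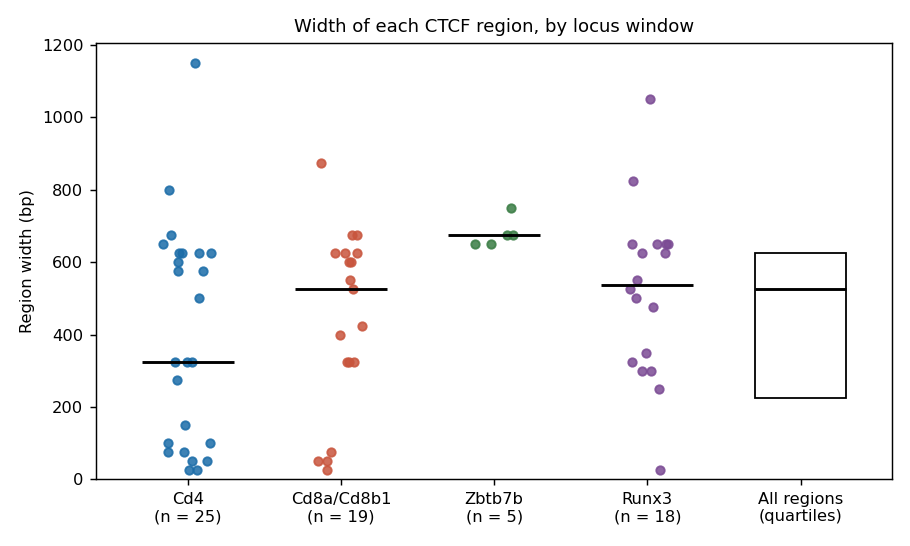
Width of every CTCF region (bp) in the 4 windows, 1 point per region with a bar at the median, beside the quartiles of all regions. The 5 regions of the Zbtb7b window lie between 650 and 750 bp, while those of the Cd4 window run from 25 to 1150 bp.

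Over the 67 regions together, widths were close to those of the genome. At least 525 bp was reached by 36 regions (53.7%), against 51.8% of all regions. The most frequent width class, 575 to 675 bp, held 26 (38.8%), against 35.3%. Regions of at most 75 bp numbered 11 (16.4%), against 14.1%, and regions over 750 bp numbered 5 (7.46%), against 4.31%. Another region lay within 200 bp of 14 of them (20.9%), against 18.0%. All 5 of these shares lay within 4 percentage points of the background, and that over 750 bp rests on 5 regions. By window, these narrow regions were 6 of 25 for Cd4 (24%), 4 of 19 for Cd8a/Cd8b1 (21.1%), 1 of 18 for Runx3 (5.56%) and 0 of 5 for Zbtb7b. The counts are small, their shares lie on both sides of the background's 14.1%, and differences between windows were not tested. Of the 11 narrow regions, 6 lay within 200 bp of another region, compared with 59.5% of all narrow regions. The track does not tell whether a narrow region is a piece of its neighbour or a separate site.

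Zbtb7b, the ThPOK gene, had the fewest and most uniform regions. The first pair in coordinate order measured 650 bp (89143194 to 89143843) and 675 bp (89144219 to 89144893). The third region, from 89158494 to 89159168, measured 675 bp. The fourth, from 89182044 to 89182693, measured 650 bp, and the last, from 89200069 to 89200818, measured 750 bp. All 5 exceeded the median width of all regions, and none had a narrow region within 200 bp. Of the 1148 tiles of 110 kb that also held 5 regions, 64 (5.58%) had all of them at 525 bp or more, and in 0 (0%) was every region at least 650 bp wide. A median of 675 bp or more was found in 29 of them (2.53%). These tile counts were chosen after the widths had been seen. The uniform widths did not extend past the window's bounds. Of the 27 regions in the 100 kb on each side, 59.3% reached 525 bp and 7.41% were at most 75 bp wide. The widest region of the window, 750 bp, was picked from 5, and its width was matched or exceeded by 5.04% of all single regions.

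The regions of Zbtb7b lay in its lower-coordinate part, with 2, 2, 1 and 0 in 4 equal parts. The gaps between them were 0.375, 13.6, 22.9 and 17.4 kb. After the last region no other was listed for 52.3 kb (89200819 to 89253118), a stretch that crosses the upper bound of the window and is longer than every gap inside it. Of all gaps between neighbouring regions in the genome, 17.7% were at least as long. The flanks of this window were denser than the window itself. In the 100 kb on each side there were 15 and 12 regions, 135 per Mb (95% Poisson interval 89.0 to 196.4), and the window held 0.337 times that density. With 500 kb on each side the flanks held 78 per Mb (61.7 to 97.3), a ratio of 0.583. Both intervals overlapped that of the window. The sparse setting depended on the window's bounds: widened by 50 kb on both sides, the window held 80.95 regions per Mb, against 45.5 within the bounds used here.

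**Figure D3:**
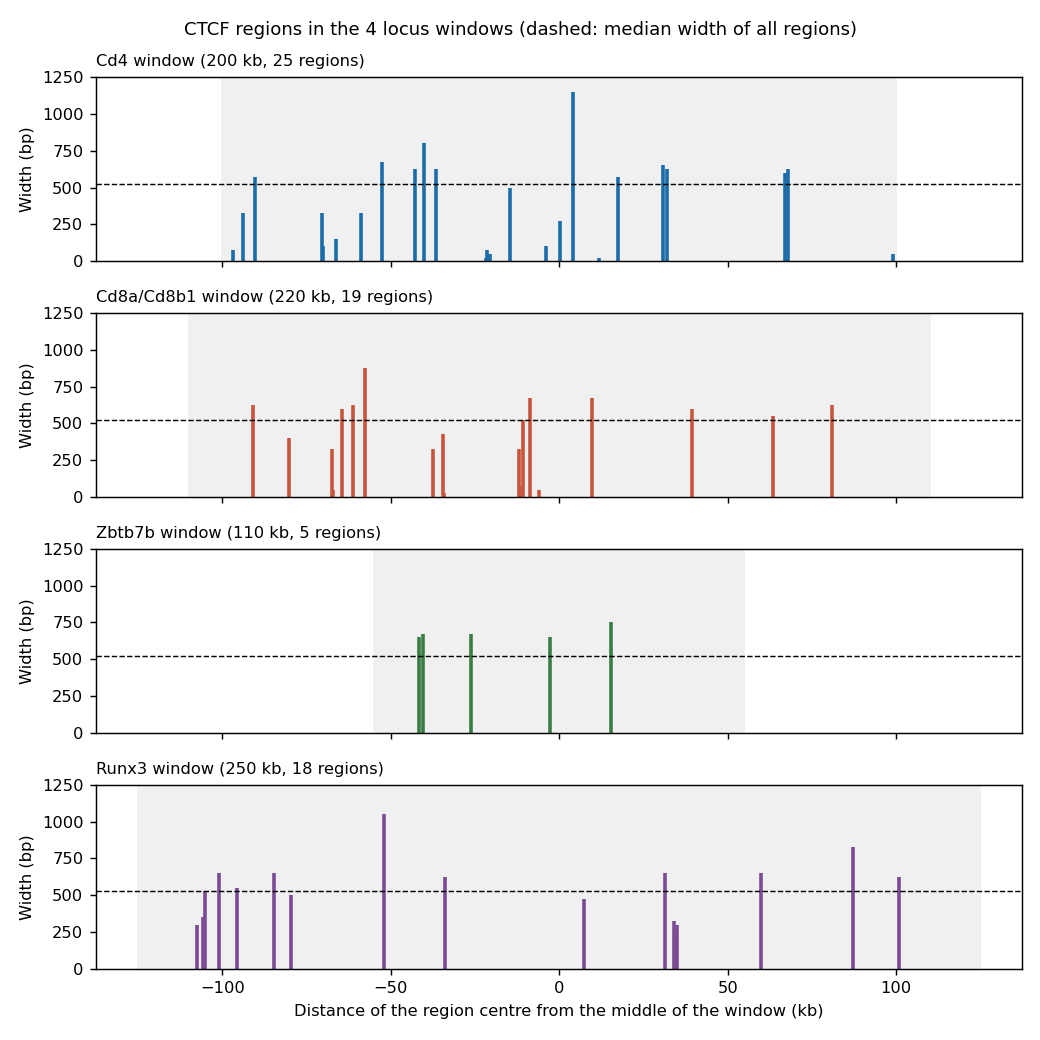
Position and width (bp) of every CTCF region in the 4 windows, as distance from the window's middle (kb), with the window in grey and the genome's median width of 525 bp dashed. Cd4 carries 25 regions of 25 to 1150 bp, and Zbtb7b 5 regions that all rise above the dashed line.

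In the Cd4 window the widest region spanned 1150 bp (124853421 to 124854570), a width reached by 0.588% of all regions. That share is for single regions, whereas this one was picked as the widest of 25. Next came a region of 800 bp from 124809496, a region of 675 bp from 124797096 and a region of 650 bp from 124880571. A further 4 regions of 625 bp tied for the fifth place, starting at 124806846, 124813221, 124881796 and 124917696. The 4 regions from 124797096 to 124813845 all belong to these widest ones. The 4 equal parts of the window held 8, 8, 6 and 3 regions from low to high coordinates. Gaps ran from 50 bp to 34.2 kb, with a median of 4.64 kb (exact 95% binomial interval 2.65 to 9.08 kb). The longest, from 124882421 to 124916645, lay between regions of 625 and 600 bp. It was followed after a pair of regions by the second longest, of 30.65 kb (124918321 to 124948970). Only 2 gaps of this window exceeded 20 kb.

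Close neighbours in the Cd4 window were of 2 kinds. In 2 places a pair of regions of at least 525 bp lay at most 1000 bp apart. The first pair, 650 and 625 bp, had its centres 1212.5 bp apart across a gap of 575 bp. The second pair, 600 bp (124916646 to 124917245) and 625 bp (124917696 to 124918320), had its centres 1062.5 bp apart across 450 bp. These pairs stand on either side of the longest gap of the window. The other kind held no region of at least 525 bp. There, 3 regions of 25, 75 and 50 bp covered 150 bp of a stretch of 1150 bp (124828346 to 124829495). Elsewhere a region of 100 bp followed one of 325 bp after 50 bp. Groups and pairs were singled out after the positions were seen.

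Of the other windows, Zbtb7b held 1 such wide pair and Cd8a/Cd8b1 and Runx3 held none. The Zbtb7b pair was formed by its first regions, of 650 and 675 bp, with centres 1037.5 bp apart and a gap of 375 bp. In all, 6 of the 67 regions (8.96%) belonged to such a pair, against 3.90% of all regions. The centres of the 1030 pairs in the genome lay a median of 1150 bp apart (quartiles 887.5 and 1387.5 bp), and all 3 pairs of the Cd4 and Zbtb7b windows were between these quartiles.

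The Cd8a/Cd8b1 window divided into a crowded lower-coordinate part and a sparse upper part. Its 4 equal parts held 7, 8, 2 and 2 regions. The widest region measured 875 bp and spanned 71251946 to 71252820. It was followed by 2 of 675 bp, from 71301021 and from 71319346, and by 3 of 625 bp, from 71218796, 71248621 and 71390796, that tied for the next places. From 71245196 to 71252820 there were 3 regions of 600, 625 and 875 bp with gaps of 2.83 and 2.70 kb. Above the middle of the window lay 4 regions, the first from 71319346, and all 4 were at least 550 bp wide. The longest gap, 29.1 kb (71320021 to 71349095), lay between the first of these and the next, of 675 and 600 bp. It was followed after that region by a gap of 23.35 kb (71349696 to 71373045). Above the last of them no region was listed for 52.3 kb (71391421 to 71443745), across the bound of the window.

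In the Cd8a/Cd8b1 window 3 of the 4 narrow regions lay beside a wider one. Of its 19 regions, 6 (31.6%) had another within 200 bp, against 18.0% of all regions. A region of 50 bp followed one of 325 bp, a region of 25 bp followed one of 425 bp, and a region of 75 bp followed one of 325 bp, each after a gap of 25 bp, that is, 1 unlisted window. If regions at most 100 bp apart were joined, the density was 72.7 per Mb, against 86.4 per Mb without joining. The median gap of the window was 2.76 kb (exact 95% binomial interval 1.35 to 17.2 kb), and 8 of its 18 gaps exceeded 10 kb. It was the shortest of the 4 only where such splits were kept, the widened window included. It was 10125 bp after joining regions at most 100 bp apart, against 5250 bp for Cd4, and 11337.5 bp without regions of at most 75 bp, against 4825 bp for Cd4 and 7575 bp for Runx3.

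The Runx3 window held 7, 2, 7 and 2 regions in its 4 equal parts. Its widest region was 1050 bp (134622486 to 134623535), a width reached by 0.945% of all regions. That share is for single regions, whereas this one was picked as the widest of 18. The region stood alone, 26.9 kb after the one before it and 17.35 kb ahead of the next. The next widest was 825 bp (134761936 to 134762760), and 4 regions of 650 bp, from 134573811, 134590161, 134706211 and 134734711, tied for the following places. The 7 regions of the first part, from 134567311 to 134595610, measured 300 to 650 bp. Among the 7 regions of the third part, a group of 4 narrower ones (134708811 to 134709985) measured 325, 250, 25 and 300 bp. That group covered 900 bp of 1175 bp. Gaps of 23.5 and 24.7 kb also lay inside the third part, so its regions did not form 1 stretch. The longest gap, 40.7 kb (134641511 to 134682210), separated regions of 625 and 475 bp and was the longest inside any of the 4 windows. The window had 5 gaps over 20 kb among 17, with a median of 4.6 kb (1.43 to 23.5 kb). A region of 600 bp began 0.16 kb above its upper bound and was not counted.

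**Figure D4:**
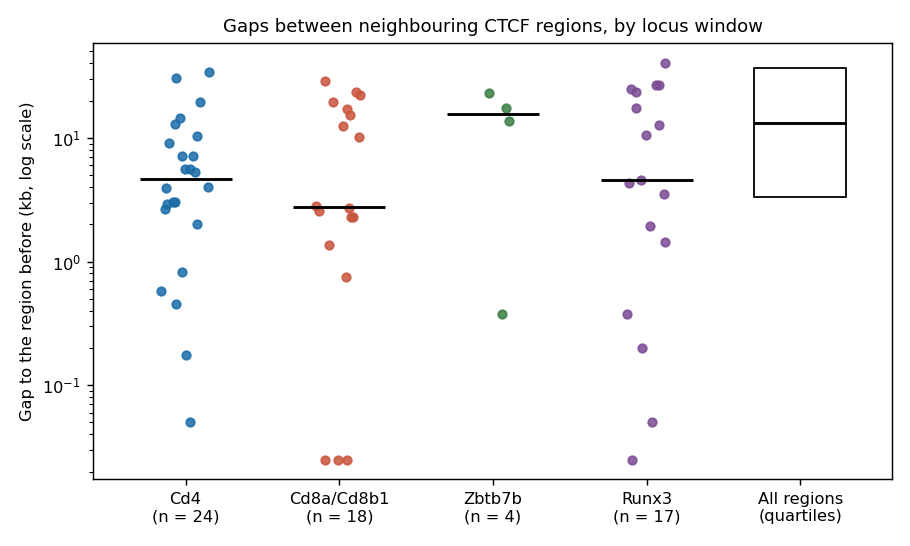
Gap from each CTCF region to the one before it in the same window (kb, log axis), 1 point per gap with a bar at the median, beside the quartiles of all gaps. With adjoining windows joined, median gaps were 4.64 kb for Cd4, 2.76 kb for Cd8a/Cd8b1, 15.5 kb for Zbtb7b and 4.6 kb for Runx3.

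Median gaps inside the windows depended on how regions were joined and on the bounds. With adjoining windows joined, the median gap was 4.64 kb for Cd4, 2.76 kb for Cd8a/Cd8b1 and 4.6 kb for Runx3, against 13.1 kb over all neighbouring regions (quartiles 3.33 and 36.7 kb). For Zbtb7b it was 15.5 kb over 4 gaps, above the genome's median, but 6825 bp and below it with the window widened by 50 kb on both sides. For Runx3 joining at 100 bp gave 10550 bp and joining at 500 or 1000 bp gave 12650 bp, and for Cd8a/Cd8b1 10125 to 11337.5 bp in these settings. Keeping regions of at least 525 bp gave 17350 bp for Runx3 and 17650 bp for Cd8a/Cd8b1. The genome's median is without joining. The intervals of Cd4, Cd8a/Cd8b1 and Runx3 overlapped one another, and that of Cd4 lay below the genome's median. Gaps within a window cannot exceed its length, which limits long values, most of all in the shortest window. The longest gaps inside the 4 windows were matched or exceeded by 22.7% to 36.2% of all gaps.

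Flanking sequence separated the windows in another way. The Cd4 window held 1.79 times the density of its flanks, which had 70 regions per Mb both with 100 kb and with 500 kb on each side. The Cd8a/Cd8b1 window held 2.47 times the density of 100 kb flanks (35 per Mb) and 1.92 times that of 500 kb flanks (45 per Mb). The Runx3 window had ratios of 0.960 and 0.973 to its flanks. Zbtb7b was below its flanks, as given above. In all 4 cases the interval of the window overlapped that of its flanks, and the difference was not tested. The flanks themselves were dense, at 45 to 78 regions per Mb over 500 kb, above the 19.6 of the genome.

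**Figure D5:**
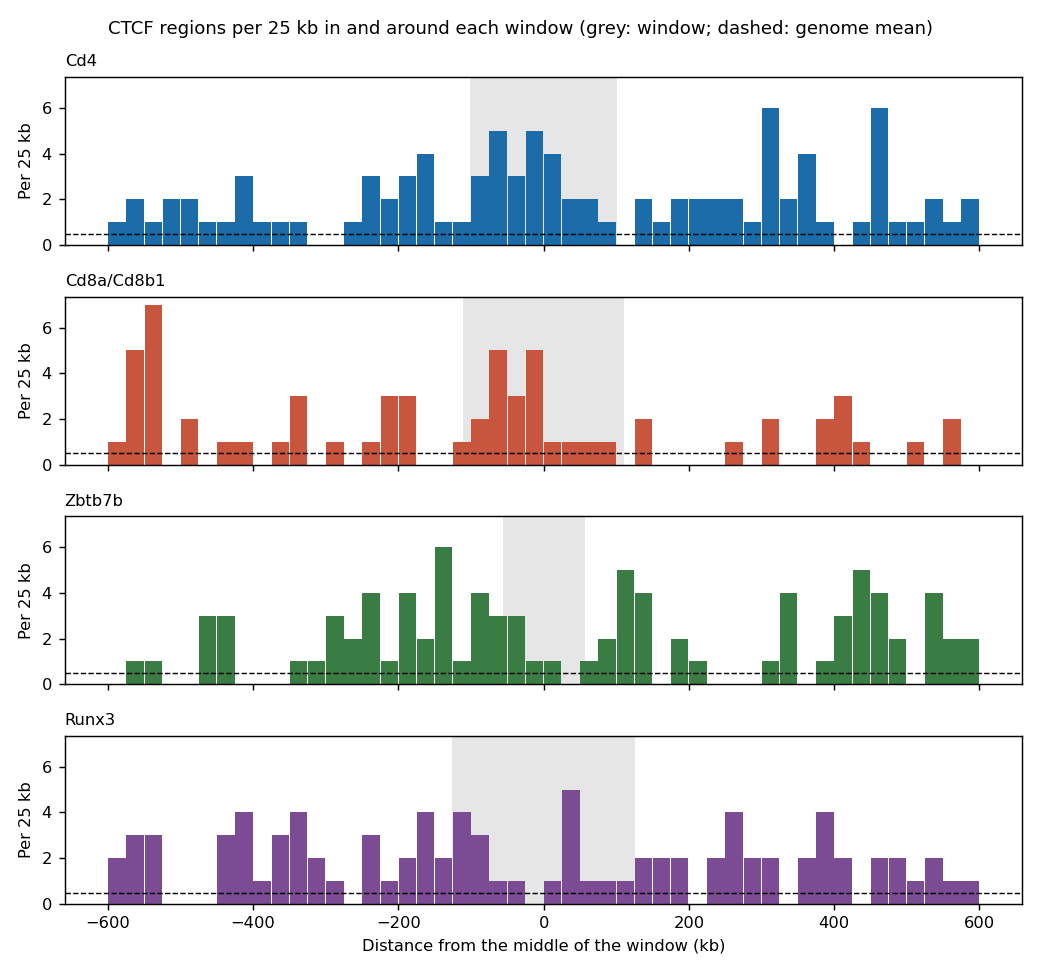
CTCF regions per 25 kb up to 600 kb on each side of the middle of each window, with the window in grey and the genome mean dashed. The Zbtb7b window sits between denser flanks (135 per Mb within 100 kb), the Cd8a/Cd8b1 window between sparser ones (35 per Mb).

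Other genes of the co-receptor lineage choice were taken as windows around Runx1, a Runx factor that silences Cd4 in earlier thymocytes, Cbfb, the partner subunit of Runx proteins, Gata3, Tox and Myb, which act upstream of Zbtb7b, and Patz1, which encodes the repressor MAZR. They held 13, 8, 8, 7, 8 and 15 regions in that order. Densities were 39.4 per Mb for Runx1, 50 for Cbfb, 57.1 for Gata3, 17.1 for Tox, 57.1 for Myb and 125 for Patz1. The Patz1 window thus matched that of Cd4 in density without joining (95% Poisson interval 70.0 to 206.2). In it 8 of 15 regions (53.3%) had another within 200 bp, against 16% for Cd4 and 18.0% of all regions. Densities of these 6 windows were not recomputed after joining. Tox was the only one of the 10 windows below the 19.6 per Mb of the genome, which its interval of 6.86 to 35.2 includes. Runx3 had 72.0 regions per Mb and its paralogue Runx1 39.4 (95% Poisson interval 21.0 to 67.4), with overlapping intervals. None of the 6 windows held a pair of regions of at least 525 bp at most 1000 bp apart. Of all regions, 3.90% belonged to such a pair. At that share few pairs would occur among 7 to 15 regions per window, so their absence sets no window apart.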

How the data were processed

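The authors used Bowtie with build mm9, per the submitters' processing notes. How peaks were called, and whether the input control entered, is not given in the sources used here. Per the values of the deposited file, it lists 912174 windows of 25 bp by chromosome, start and end only. It gives no count, signal or score. Starts were read as counted from 0 and are printed counted from 1. Adjoining windows (gap of 0 bp) were joined into 51661 regions, and 1 mitochondrial region was left out. The track cannot show weak binding or its absence.

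The members, windows and lists were chosen with earlier results of these data known. All regions of a window with 12 or fewer are named, otherwise the 5 widest with ties and those beside the longest gap. Windows of the 6 other genes used rounded mm9 bounds from general knowledge, which no annotation checked: Runx1 on chromosome 16 (92550000 to 92880000), Cbfb on 8 (107640000 to 107800000), Gata3 on 2 (9720000 to 9860000), Tox on 4 (6560000 to 6970000), Myb on 10 (20790000 to 20930000) and Patz1 on 11 (3140000 to 3260000). No test was made, since there was 1 library. Numbers have exact 95% Poisson intervals and medians exact 95% binomial intervals, which need at least 6 values. The joining and counting steps were tested on simulated data. Alternatives joined regions at most 100, 500 or 1000 bp apart, dropped those of at most 75 bp, kept those of at least 525 bp, widened windows by 50 kb on both sides or counted any overlap. Software was SciPy 1.17.1, pandas 2.3.3 and NumPy 2.4.6 under Python 3.11.15, with figures by matplotlib 3.10.9.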

Additional observations from a re-analysis of the deposited data

How the results depend on the processing

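The density, median width and median gap of the 4 windows were recomputed under 7 alternatives, which gave 84 values. Of these, 79 stayed inside the 95% interval of the reported value (for Zbtb7b medians, inside the range of its widths or gaps) and 5 moved outside it. These intervals are wide, and several medians inside them moved by over 1.5 times: the width of Cd4 to at most 625 bp (325 bp reported), and the gap of Cd8a/Cd8b1 to 10125 or 11337.5 bp (2762.5 bp), of Runx3 to between 7575 and 17350 bp (4600 bp) and of Zbtb7b to 6825 bp (15487.5 bp). All 5 came from keeping regions of at least 525 bp: the densities were 55 per Mb for Cd4, 45.5 for Cd8a/Cd8b1 and 40 for Runx3, and the median gaps 10775 bp for Cd4 and 17650 bp for Cd8a/Cd8b1. Fewer regions enter by construction. The Cd4 window had the highest density in all 7 alternatives. Zbtb7b had the lowest in 5, but with windows widened by 50 kb on both sides it held 80.95 per Mb, above Runx3 with 80 and Cd8a/Cd8b1 with 68.75, and among regions of at least 525 bp Runx3 was lowest. Its place thus depends on the window's bounds. Counting any overlap changed no density, median width or median gap. Zbtb7b values were also unchanged by joining at 100 bp, dropping regions of at most 75 bp or keeping those of at least 525 bp. These steps could not act on its 5 regions of 650 to 750 bp with gaps of at least 375 bp. Such unchanged values count among the 79, so the tally does not measure robustness. The range used for the Zbtb7b medians is not a 95% interval.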
